A study of Mus musculus with 6 samples.

Results

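Spic and 8 genes that handle haem and iron were followed in CD45-enriched immune cells of mouse lung: Spic, Hmox1, Slc40a1, Fth1, Ftl1, Blvrb, Bach1, Nfe2l2 and Slc11a1. The list was chosen by levels measured in these same libraries, where Spic and Hmox1 were among the genes leading an AML-rich cluster of monocytes, and was extended to 7 other genes of haem and iron handling. The 9 genes were matched by symbol to the 32285 genes of the count matrices, and every one was found in all 6 libraries. The study compared lungs infiltrated by acute myeloid leukaemia (AML) with normal lungs, with 3 libraries in each group. Lungs were perfused and digested, CD45-positive cells were taken on magnetic beads, and droplet libraries that read the 3′ end of polyadenylated RNA were made. The strain, age and sex of the mice, the leukaemia model, its time course and whether each library came from 1 animal are not stated in the labels, so p-values measure the spread between libraries only. Both groups share the perfusion, the digestion and the CD45 selection.

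Red cells that reach the end of their life are taken up by macrophages, chiefly in the red pulp of the spleen, and the haem they carry is opened by haem oxygenase to free iron, carbon monoxide and biliverdin. The iron is then held in ferritin or leaves the cell through ferroportin. SPIC is the transcription factor that red pulp macrophages need, and its gene is normally held down by the haem sensor BACH1, which also represses the haem oxygenase gene and shares its target sites with the activator NRF2.

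Ferritin and ferroportin are also set by iron after transcription, through a hairpin in the 5′ UTR that iron regulatory proteins bind when iron is scarce. These 27-base elements are printed because transcript counts, the only readout here, do not show that layer of control for 3 of the 9 genes. They were read on the GRCm38 build with GENCODE annotation, 5′ to 3′, and capitals mark the CAGTGN loop. The Fth1 element lies in exon 1 at chr19:9982733-9982759 on the plus strand, the Ftl1 element in exon 1 at chr7:45459780-45459806 on the minus strand, and the Slc40a1 element in exon 1 at chr1:45925466-45925492 on the minus strand.
Fth1: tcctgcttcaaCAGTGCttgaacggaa
Ftl1: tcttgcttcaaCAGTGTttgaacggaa
Slc40a1: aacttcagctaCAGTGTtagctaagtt
Counting from 1 at the 5′ end, the Fth1 and Ftl1 elements differed at 2 of 27 positions, C3T and C17T. Each of them differed from the Slc40a1 element at 14 positions. A match to the loop is a description of the sequence and says nothing about binding in these cells.

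The files held 73095 barcodes and between 43913245 and 66513826 unique molecular identifiers (UMIs, one per captured transcript) a library. After filters 71634 cells were kept and 51350 were assigned to a cell type by marker genes, which do not include the 9 genes. The median barcode held 1067 to 9381 UMIs in the 3 AML libraries and 2740 to 9354 UMIs in the 3 normal ones, both lowest in replicate 3. AML replicate 3 stood apart: it held 35391 barcodes, 39.6% of its kept cells passed no gate, and transcripts of monocytes and neutrophils were found in its B and T cells. Pairs of libraries shared between 1 and 118 barcodes. Values are CPM, the counts of a gene scaled to a fixed total, of the summed UMIs of a cell type in a library. Spic in B and T cells together was used as a rough guide to free RNA. It was 0.975, 3.48 and 9.54 CPM in AML replicates 1 to 3 and 0, 0.346 and 0.480 CPM in normal replicates 1 to 3. Group means were higher in B than in T cells (6.11 against 3.13 CPM in AML, 0.397 against 0.133 CPM in normal lung). Whether these cells hold Spic RNA of their own was not tested. CPM carries no correction for transcript length, so levels are compared between cells for 1 gene and not between genes.

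Nonclassical monocytes, which patrol the vessel wall, held more of the Spic UMIs of every library than any other of the 5 main myeloid types. Their gate took 2220, 4673 and 3776 cells in AML replicates 1 to 3 and 334, 613 and 786 cells in normal replicates 1 to 3. All 7 of its markers were higher in it than in the other main gates, which the gate's own rule favours and so gives no separate support. Fth1, Ftl1 and Blvrb were higher in AML lung in these cells, and Spic and Hmox1 lay above every normal library. Bach1, Nfe2l2 and Slc11a1 did not pass the test, and Slc40a1 was close to 0. Of the 6 genes with a test (Spic and Hmox1 were excluded because earlier results of these data had shown them among the genes leading an AML-rich cluster of such monocytes, and Slc40a1 was too low), 3 passed edgeR's quasi-likelihood test at an adjusted p of 0.05, all higher in AML. Among all 10461 genes tested in these cells 5.82% passed, and 3.26% passed as higher in AML. At an unadjusted p of 0.05 by edgeR, 2486 genes passed. Genes whose groups do not overlap were not counted over all genes, so lack of overlap is given throughout as a description. Same-numbered libraries deviated together in this cell type, for a reason not tested. With replicate number as a block the same test called 950 genes where the unblocked fit called 609, with 3 of the 6 genes in both.

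**Figure D1:**
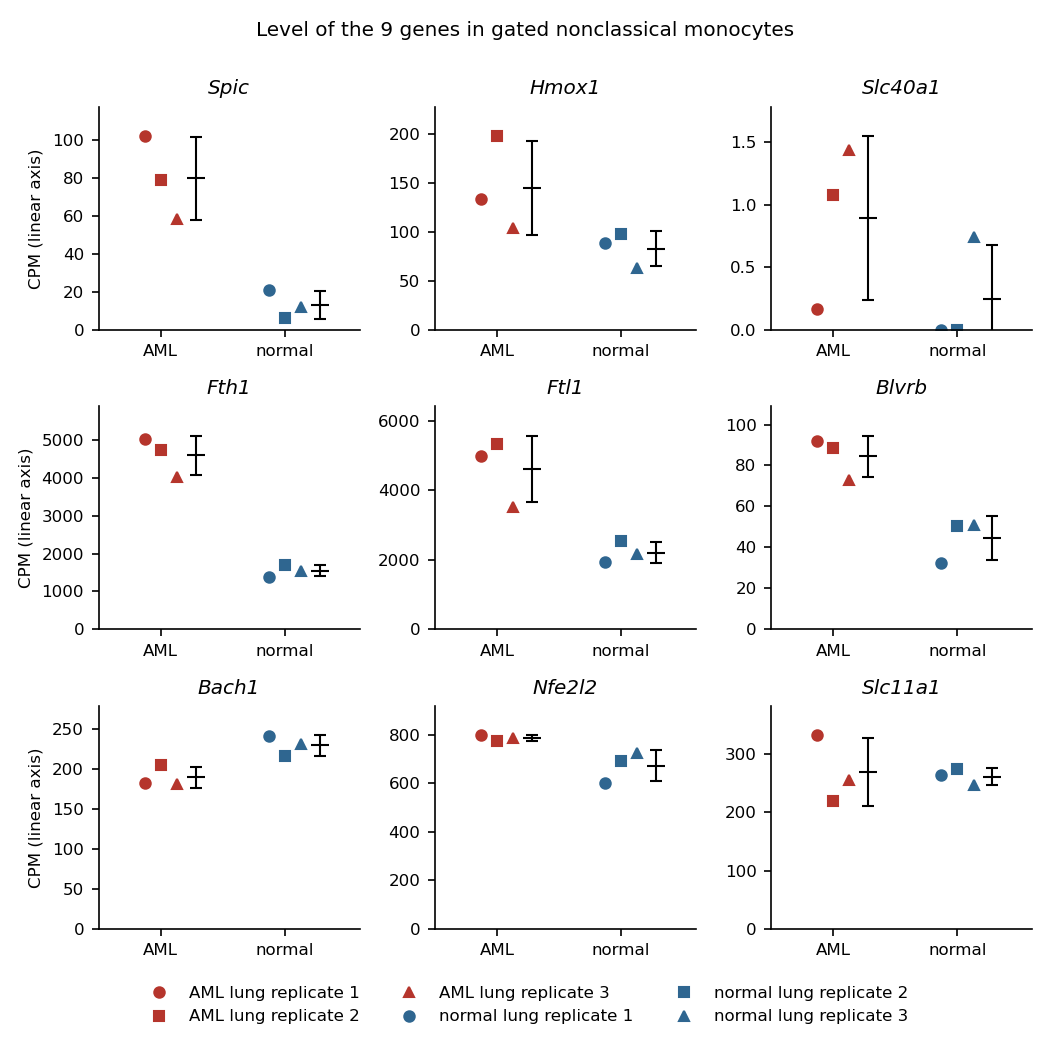
Level of each of the 9 genes in gated nonclassical monocytes, in CPM on linear axes that start at 0. Points are libraries, bars are the mean and SD of 3 libraries. Spic, Hmox1, Fth1, Ftl1, Blvrb and Nfe2l2 sit higher in all 3 AML libraries than in any normal library, and Bach1 sits lower. How many of all genes separate the groups in this way was not counted.

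Spic, on chromosome 10 at 88674772-88685015 of GRCm38, stood at 102, 78.9 and 58.7 CPM in nonclassical monocytes of AML replicates 1 to 3. In normal replicates 1 to 3 it stood at 20.8, 6.32 and 12.1 CPM. The lowest AML library was above the highest normal library, and the log2 fold change was 2.68 with a standard error (SE) of 0.36, given as a description without a test. All 6 values were above the level in B and T cells of their own library. The share of these cells with a Spic UMI was 35.4%, 20.5% and 5.88% in AML replicates 1 to 3 and 6.29%, 2.77% and 3.69% in normal replicates 1 to 3, at median depths from 1014 to 10246 UMIs. With every cell thinned to 1000 UMIs the shares were 8.25%, 6.60% and 4.92% against 1.78%, 0.719% and 0.972%, from 1919 to 4433 AML cells and 333 to 721 normal cells a library. Thinned shares of B cells reached 1.21% in AML replicate 3, at a median of 926 UMIs, and at most 0.260% in the other libraries. Normal nonclassical monocytes thus held Spic at a low level, and the AML cells held it at a level 6.11 times as high by group means.

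Bach1 and Nfe2l2 encode the repressor and the activator described above, and the RNA of each differed by a small amount between the groups. The level and activity of the proteins were not measured. Bach1 stood at 182, 205 and 181 CPM in AML replicates 1 to 3 and at 242, 216 and 230 CPM in normal replicates 1 to 3. The groups did not overlap and AML was the lower, yet the log2 fold change of -0.24 (SE 0.11) had an adjusted p of 0.228 by edgeR. Nfe2l2, which encodes NRF2, stood at 798, 775 and 784 CPM against 602, 690 and 726 CPM. AML was the higher without overlap, with a log2 fold change of 0.26 (SE 0.12) and an adjusted p of 0.247 by edgeR.

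Hmox1 encodes the inducible haem oxygenase. It stood at 134, 198 and 104 CPM in nonclassical monocytes of AML replicates 1 to 3 and at 88.3, 97.3 and 63.2 CPM in normal replicates 1 to 3. AML replicate 3 was close to normal replicate 2, and the log2 fold change was 0.85 (SE 0.24), given without a test. Hmox1 was also present in B and T cells, at 22.7 CPM in AML replicate 3, 6.86 CPM in AML replicate 2 and 1.14 to 1.54 CPM in the other 4 libraries. Blvrb, biliverdin reductase B, which reduces biliverdins and flavins, stood at 91.9, 88.6 and 72.8 CPM against 32.2, 50.4 and 50.9 CPM. Every AML library was above every normal library, and the log2 fold change was 0.96 (SE 0.19, adjusted p = 0.0266 by edgeR).

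Fth1 and Ftl1 encode the heavy chain of ferritin, which oxidises iron, and the light chain, which helps to mineralise it. Fth1 stood at 5022, 4738 and 4026 CPM in nonclassical monocytes of AML replicates 1 to 3. Normal replicates 1 to 3 stood at 1392, 1692 and 1551 CPM, so the groups lay far apart and neither overlapped the other. Its log2 fold change was 1.61 (SE 0.15, adjusted p = 0.00217 by edgeR). Ftl1 stood at 4991, 5335 and 3526 CPM against 1938, 2535 and 2162 CPM, again without overlap. Its log2 fold change was 1.10 (SE 0.19, adjusted p = 0.0161 by edgeR). Lymphocytes also had higher group means in AML, with no test made. Ftl1 stood at 830 against 401 CPM in B cells, 655 against 311 CPM in T cells and 825 against 357 CPM in natural killer (NK) cells. Fth1 stood at 1483 against 968 CPM, 964 against 530 CPM and 1024 against 492 CPM in the same types. The part of free RNA in these levels was not tested. Both ferritin genes have near-identical processed copies in the genome, and no source used here says how reads shared with those were counted, so their levels are less certain than those of the other genes.

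Ferroportin, encoded by Slc40a1, is the iron exporter. Nonclassical monocytes held 4, 30 and 7 UMIs of it in AML replicates 1 to 3 and 0, 0 and 3 UMIs in normal replicates 1 to 3, at most 1.44 CPM, and it was too low to be tested. Slc11a1, the NRAMP1 transporter that moves iron and manganese out of phagosomes, stood at 333, 219 and 256 CPM against 264, 274 and 246 CPM. The groups overlapped, and the log2 fold change was 0.08 (SE 0.16, adjusted p = 0.802 by edgeR).

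The call for Fth1 held in every alternative fit. Leaving out AML replicate 1 or any of normal replicates 1, 2 and 3 left Fth1 as the only one of the 6 genes called, with edgeR's adjusted p of Ftl1 between 0.0542 and 0.0877 and of Blvrb between 0.0658 and 0.0910. Under the profile assignment Fth1 and Ftl1 were called and Blvrb was not (edgeR adjusted p = 0.0640). Pecam1, an endothelial marker, also differed in this gate, from 1094 to 1382 CPM in AML and 225 to 317 CPM in normal libraries, whereas the other 4 endothelial markers (Cdh5, Cldn5, Kdr and Egfl7) summed to at most 4.42 CPM in any library.

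Within nonclassical monocytes the genes were compared between cells with and without a Spic UMI, as a description. Cells with a UMI numbered 785, 957 and 222 in AML replicates 1 to 3 and 21, 17 and 29 in normal replicates 1 to 3. Hmox1 was higher in the cells with a Spic UMI in 6 of 6 libraries. Its level was 228, 548 and 287 CPM in those cells of AML replicates 1 to 3 and 71.9, 85.9 and 88.9 CPM in the cells without. In normal replicates 1 to 3 it was 600, 272 and 160 CPM with and 48.3, 92.0 and 59.2 CPM without. Fth1 and Ftl1 were likewise higher in the cells with a Spic UMI in 6 of 6 libraries. Blvrb was higher in them in the 3 AML libraries (103, 119 and 113 CPM with, 84.3, 78.9 and 69.5 CPM without) and in 1 of 3 normal libraries. A cell without a Spic UMI may still hold Spic RNA, and the cells with one were somewhat deeper in 5 of 6 libraries (median 11047 against 9896 UMIs in AML replicate 1, and 6580 against 7048 in normal replicate 2).

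Restricting the test to nonclassical monocytes without a Spic UMI, a setting chosen after seeing the data, gave another view of the group difference. Fth1 stood at 4153, 3934 and 3809 CPM in such cells of AML replicates 1 to 3 and at 1316, 1599 and 1503 CPM in those of normal replicates 1 to 3. The difference was therefore also present in cells in which Spic was not detected, with a log2 fold change of 1.45 (SE 0.13, adjusted p = 0.00199 by edgeR). Ftl1 and Blvrb passed too, at 0.997 (SE 0.17, adjusted p = 0.0185) and 0.81 (SE 0.18, adjusted p = 0.0398). Hmox1 in these cells overlapped between the groups, and its log2 fold change was 0.32 (SE 0.22) against 0.85 in all nonclassical monocytes.

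**Figure D2:**
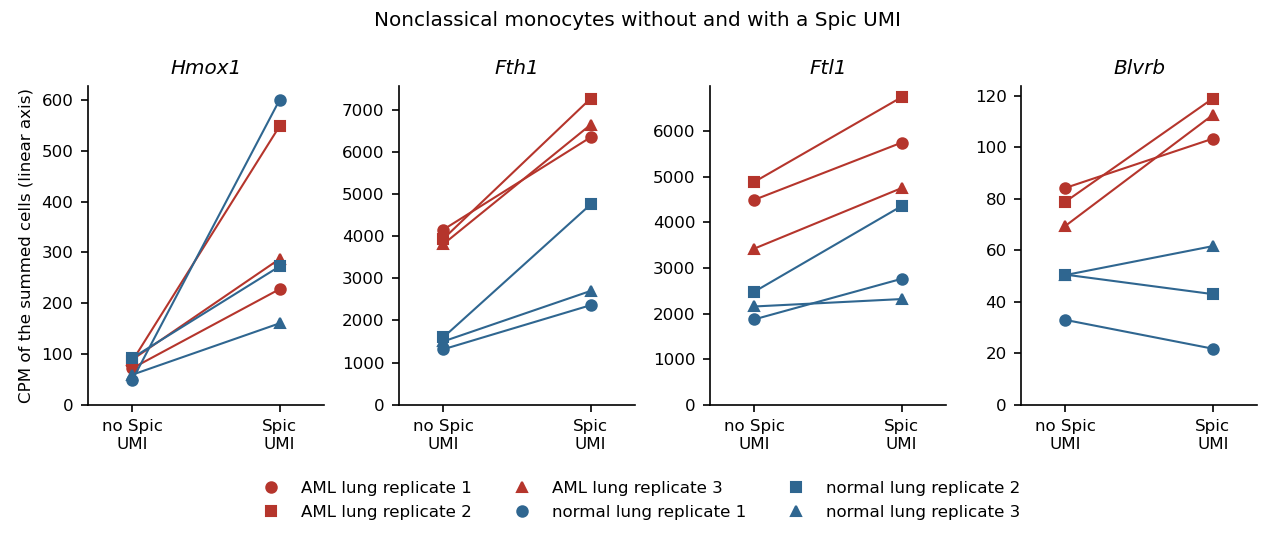
CPM of Hmox1, Fth1, Ftl1 and Blvrb in the summed nonclassical monocytes without (left) and with (right) a Spic UMI, 1 line per library, on linear axes that start at 0. Hmox1 in cells without a Spic UMI lies between 48.3 and 92.0 CPM in both groups, while Fth1 in the same cells lies at 3809 to 4153 CPM in AML and 1316 to 1599 CPM in normal libraries.

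Across cell types each of the 9 genes had its own pattern. Spic was highest in interstitial macrophages and nonclassical monocytes of AML lung, at group means of 120 ± 41 and 79.9 ± 21.7 CPM (SD, n = 3). Both types came from the same libraries. The macrophages were the higher in each of AML replicates 1 to 3 (112, 165 and 84.8 against 102, 78.9 and 58.7 CPM), and this difference was not tested. Neutrophils of AML lung followed at 19.4 ± 1.2 CPM, and classical monocytes and alveolar macrophages of AML lung were at 4.42 and 3.18 CPM, below the 6.11 CPM of B cells. Fth1 was highest in alveolar macrophages, at 9548 ± 1906 CPM in AML and 9299 ± 977 CPM in normal lung. Ftl1 was also high there, at 5925 ± 491 and 5959 ± 321 CPM, close to the 5752 ± 1001 CPM of AML interstitial macrophages. Hmox1 and Blvrb had their highest means in AML interstitial macrophages, at 292 ± 286 and 180 ± 21 CPM, the first with a spread as large as the mean. Slc40a1 was highest in neutrophils of normal lung, at 313 ± 24 CPM. It stood at 159 ± 79 CPM in AML neutrophils and 152 ± 131 CPM in AML interstitial macrophages, and the order of these 2 types changed between AML libraries. Gated erythroid cells, few in number, held it at 40.5 CPM in AML replicate 3 and at 157 and 128 CPM in normal replicates 2 and 3. Some of those cells passed the neutrophil gate when haemoglobin genes were left out of the markers. Whether these are levels of erythroid cells was not tested. Slc11a1 was at 261 to 269 CPM in nonclassical monocytes of both groups and at 4.14 CPM in alveolar macrophages of normal lung. Bach1 ranged only from 138 to 259 CPM over the 5 myeloid types, and Nfe2l2 from 281 to 814 CPM.

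**Figure D3:**
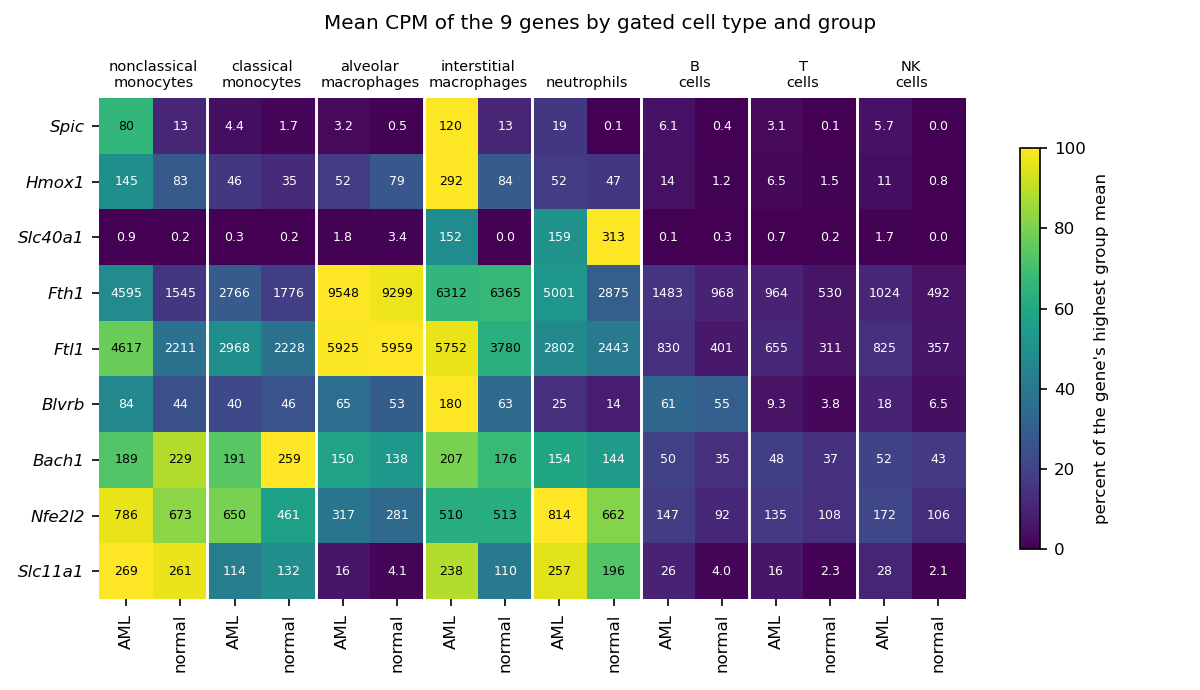
Mean CPM of each gene in 8 gated cell types of AML and normal lung, over 3 libraries each (2 for interstitial macrophages of normal lung). Printed numbers are the means, and colour gives each mean as a percent of the highest in its row. Spic peaks in AML interstitial macrophages and nonclassical monocytes, Slc40a1 in neutrophils and AML interstitial macrophages, and both ferritin genes in alveolar macrophages.

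By r of log2(CPM + 1) with Spic over 59 sums of a library and cell type (15 types, at least 50 cells each), the 8 most alike of 8875 genes were Cd300e (0.83), Sod2 (0.81), Fcgr4 (0.79), Pot1b (0.79), Abi3 (0.77), Adgre4 (0.77), Ms4a4a (0.76) and Smpdl3b (0.76). Cd300e is itself one of the gate's markers. Of the 8 other genes of the list, Slc11a1 ranked 27 (0.70), Hmox1 38 (0.68) and Blvrb 142 (0.57), and Slc40a1 came last at 1265 (0.30). The sums share libraries and cells, so these values order genes and carry no p.

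Classical monocytes, the Ly6c2 and Ccr2 cells that enter from blood, gave no call in the fit without a block. None of the 8 genes tested passed edgeR's test, where 1.50% of all 10228 genes did. At an unadjusted p of 0.05, 2085 genes passed, and DESeq2 called 459 genes, among them 2 of the 8, Fth1 and Nfe2l2. With replicate number as a block, edgeR called 246 genes, with Fth1 the only 1 of the 8. Fth1 stood at 2353, 2821 and 3124 CPM in AML replicates 1 to 3 and at 1403, 1913 and 2012 CPM in normal replicates 1 to 3, without overlap (log2 fold change 0.64, SE 0.17, edgeR adjusted p = 0.0969). Nfe2l2 stood at 653, 635 and 661 CPM against 438, 443 and 503 CPM (log2 fold change 0.49, SE 0.12, edgeR adjusted p = 0.0742). Bach1 was below every normal library here as well, at 181 to 198 CPM against 245 to 284 CPM (log2 fold change -0.44, edgeR adjusted p = 0.0922). Ftl1 was higher without overlap, at 2794 to 3193 CPM against 2070 to 2479 CPM (log2 fold change 0.41, edgeR adjusted p = 0.120), and Hmox1 and Blvrb overlapped between the groups. Spic, at 3.48 to 6.03 CPM in AML, was no higher than in the B cells of 2 of the 3 AML libraries.

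The AML effect on the ferritin genes differed between the monocyte types. In a fit with library as a block, the log2 fold change in nonclassical monocytes exceeded that in classical monocytes by 0.96 for Fth1 (SE 0.17, edgeR adjusted p = 0.0167). For Ftl1 it was larger by 0.67 (SE 0.15, edgeR adjusted p = 0.0357) and for Blvrb by 1.24 (SE 0.23, edgeR adjusted p = 0.0206), where 2.92% of all 11056 genes passed. Bach1, Nfe2l2 and Slc11a1 did not pass this test. Against alveolar macrophages only Fth1 passed of 7 genes, with a difference of 1.59 (SE 0.21, edgeR adjusted p = 0.0279) where 1.38% of 12018 genes did. Ftl1 missed it at 1.11 (SE 0.21, edgeR adjusted p = 0.0532). Against neutrophils none of 7 passed, where 0.0985% of 11163 genes did (2 of the 7 at an unadjusted p of 0.05, Fth1 and Ftl1). The 4 calls were lost, with none of the 20 tests left, without AML replicate 2 or without any 1 of the 3 normal libraries.

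**Figure D4:**
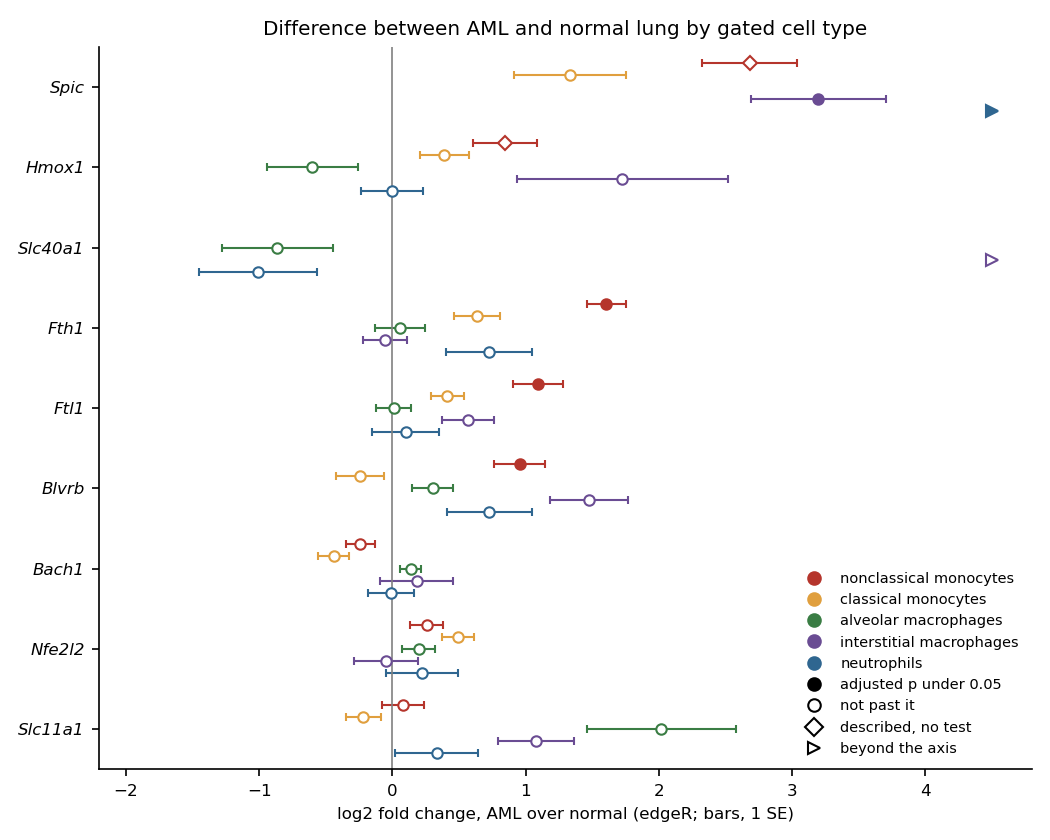
Fitted log2 fold change of each gene, AML over normal lung, in 5 gated cell types, with 1 SE on either side. Filled circles passed edgeR's test at an adjusted p of 0.05, open circles did not, diamonds are described without a test, and triangles mark the fitted values of Spic in neutrophils and Slc40a1 in interstitial macrophages, which lie beyond the axis because the normal libraries were at or near 0. The filled marks of Spic in interstitial macrophages and neutrophils are descriptive, as given in the text.

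Alveolar macrophages, which clear surfactant and inhaled matter and held the most ferritin RNA, showed no call. None of 8 genes tested passed, and the share of all 11756 genes that passed edgeR's test was 0%. At an unadjusted p of 0.05 there were 1174 genes, and DESeq2 called 85, with Slc11a1 as the 1 gene of the list. Fth1 stood at 7791, 9279 and 11575 CPM in AML replicates 1 to 3 and at 8183, 10004 and 9708 CPM in normal replicates 1 to 3, with overlap. Hmox1 stood at 38.3, 63.9 and 52.4 CPM against 122, 66.4 and 48.4 CPM, also with overlap. Slc11a1 was at 7.17, 8.70 and 33.0 CPM against 4.35, 4.06 and 4.01 CPM (log2 fold change 2.02, SE 0.56, edgeR adjusted p = 0.467), and its level in B and T cells was 2.76, 10.2 and 50.4 CPM in the same AML libraries, above that of the macrophages in 2 of the 3.

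Interstitial macrophages, the C1q-positive cells of the lung tissue, were few: 24, 93 and 332 cells in AML replicates 1 to 3 and 42 and 33 in normal replicates 2 and 3. Normal replicate 1 had 10 and was left out, so 3 libraries were set against 2. The fit called 1 gene of 9, Spic, where 0.591% of all 5754 genes passed. That call supports nothing, since Spic was chosen for its AML level in these libraries and, with 6 UMIs in the normal libraries used, passed the low-count filter through AML, so its levels are a description. It stood at 112, 165 and 84.8 CPM in AML replicates 1 to 3 (37, 131 and 47 UMIs) and at 10.8 and 15.4 CPM in normal replicates 2 and 3 (3 UMIs each), with a fitted log2 fold change of 3.20 (SE 0.51). The call was lost without AML replicate 1, AML replicate 2 or either normal library, and when every cell was assigned to its most likely profile. Without AML replicate 1, Slc40a1 was called in its place. With 0 UMIs in the normal libraries used, Slc40a1 also passed the filter through AML, so that call supports nothing either. Markers of nonclassical monocytes also moved: the 7 of them, none at 0, summed to 2265 to 2691 CPM in AML and 527 to 994 CPM in normal libraries of this gate, and their part in the Spic difference was not tested.

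Ferroportin was found in these macrophages in AML lung. Slc40a1 stood at 36.2, 293 and 126 CPM in AML replicates 1 to 3 (12, 233 and 70 UMIs) and at 0 in normal replicates 2 and 3. Against a floor of 3 UMIs over those 2 libraries, 6.33 CPM, the pooled AML level was at least 29.6-fold higher. The 10 cells of normal replicate 1 held 1 UMI, and with them the pooled ratio was 119 (95% interval 21.2 to 4710, counting error only). The spread between AML libraries was wide, and edgeR's adjusted p was 0.0842. Slc40a1 passed the low-count filter through AML, so these levels are a description. Blvrb stood at 178, 203 and 160 CPM against 64.6 and 61.4 CPM (log2 fold change 1.48, SE 0.29, edgeR adjusted p = 0.0616). Hmox1 ran from 87.4 to 618 CPM in AML and was at 133 and 35.8 CPM in normal libraries (edgeR adjusted p = 0.353). Fth1, at 6142 to 6632 CPM in AML and 5744 and 6986 CPM in normal libraries, showed no such difference (log2 fold change -0.06, SE 0.17, edgeR adjusted p = 0.929).

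The Slc40a1 UMIs came from 54 of the 449 AML interstitial macrophages. Of those 54 cells, 41 had a UMI of Vcam1, 28 of Cd5l and 27 of Itgad, 3 genes of red pulp macrophages that were picked after their values were seen, and 25 had one of Spic and 35 of Hmox1. Of the 395 AML cells without an Slc40a1 UMI, 42 had a UMI of Vcam1, 23 of Cd5l, 19 of Itgad, 50 of Spic and 76 of Hmox1. These counts pool libraries of unequal depth, and 300 of the 395 cells came from AML replicate 3. In AML replicates 2 and 3 all 5 genes were found in a larger share of the cells with an Slc40a1 UMI. In AML replicate 1, with 4 such cells against 20, Spic (1 against 7), Cd5l (0 against 2) and Itgad (0 against 3) were not, and Hmox1 was at 50% of both. In the 3 normal libraries, replicate 1 included, 1 of 85 cells had a UMI of Vcam1, and none had one of Cd5l or Itgad, which allows up to 3.53% of cells with a UMI for each and sets no limit on cells that express it. Between the groups the other red pulp genes went the other way, at unequal depths. A UMI of Hpgd was found in 18.7% of all AML and 70.6% of all normal interstitial macrophages, and one of Mrc1 in 118 of the 449 and 51 of the 85. Axl was found in 34.1% and 54.1%, Mertk in 33.2% and 54.1% and Adgre1 in 44.8% and 54.1%, and Siglec1 and Il18bp were also lower in AML. Within AML all 10 red pulp genes were found in a larger pooled share of cells with an Slc40a1 UMI than without. Mrc1 was at 63.0% against 21.3% and Hpgd at 27.8% against 17.5%. Cells with an Slc40a1 UMI had median depths of 6709, 8972 and 1783 UMIs in AML replicates 1 to 3, against 14918, 5948 and 1253 for those without. Of the 10 red pulp genes 8 were tested in this gate, with a median log2 fold change of -0.076 where that of all genes was 0.0010, and 1 passed edgeR's test. It was Vcam1, at 93.4, 126 and 312 CPM in AML replicates 1 to 3 against 0 and 5.12 CPM (edgeR adjusted p = 0.0416). Vcam1 passed the low-count filter through AML, so its call supports nothing, as for Spic, and its levels are a description. That call was lost without AML replicate 2 or either normal library, in the stricter gate and under the profile assignment.

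Neutrophils carried most of the ferroportin RNA of every library. Between 58.4% and 86.7% of the Slc40a1 UMIs lay in their gate. Slc40a1 stood at 228, 177 and 72.2 CPM in AML replicates 1 to 3 and at 317, 287 and 334 CPM in normal replicates 1 to 3. AML was the lower without overlap, and the log2 fold change of -1.01 (SE 0.44) had an edgeR adjusted p of 0.319. B and T cells held at most 0.909 CPM of it. Fth1 stood at 5745, 5233 and 4025 CPM against 3220, 2807 and 2597 CPM, without overlap (log2 fold change 0.73, SE 0.32, edgeR adjusted p = 0.323). Ftl1 ran from 2762 to 2850 CPM in AML and 2273 to 2609 CPM in normal neutrophils, and Blvrb, Bach1, Hmox1, Nfe2l2 and Slc11a1 overlapped between the groups. The gate of AML replicate 3 took 6833 cells, of which many had few UMIs (median 1007), and 4722 cells under the profile assignment.

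In neutrophils the fit called 1 gene of 9, again Spic, where 0.0333% of 9011 genes were called. As above, that call supports nothing: with 1 UMI in all normal neutrophils Spic passed the low-count filter through AML, and its levels are a description. It stood at 19.3, 20.6 and 18.1 CPM in AML replicates 1 to 3 (42, 59 and 157 UMIs) and at 0.302, 0 and 0 CPM in normal replicates 1 to 3, where 1 UMI was counted. The pooled ratio was 126 (95% interval 22.4 to 4987, counting error only). The AML levels were above the 0.975, 3.48 and 9.54 CPM of B and T cells. The 7 markers of nonclassical monocytes, none at 0, summed to 800 to 1642 CPM in AML and 450 to 512 CPM in normal neutrophils, and their part in the Spic difference was not tested. The call was lost without AML replicate 2 or any 1 of the normal libraries, and under the profile assignment.

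In whole libraries, which mix cell numbers and RNA per cell so that the 2 cannot be told apart, Nfe2l2, Slc11a1 and Blvrb were higher in AML. They were the 3 called of 7 genes tested, where 9.48% of all 16808 genes passed and 6.04% did as higher in AML. Nfe2l2 stood at 569, 572 and 551 CPM in AML replicates 1 to 3 and at 314, 313 and 316 CPM in normal replicates 1 to 3 (log2 fold change 0.97, SE 0.10, edgeR adjusted p = 0.00862). Slc11a1 stood at 203, 140 and 126 CPM against 50.9, 59.5 and 54.3 CPM (log2 fold change 1.64, SE 0.19, edgeR adjusted p = 0.00988). Neither gene passed within nonclassical monocytes, which made up 48.9%, 36.0% and 10.7% of kept cells in AML replicates 1 to 3 and 9.44%, 11.1% and 7.98% in normal replicates 1 to 3. Blvrb was called at 0.71 (SE 0.17, edgeR adjusted p = 0.0483). Spic stood at 57.0, 45.3 and 21.6 CPM in whole libraries of AML replicates 1 to 3 and at 2.48, 1.46 and 2.27 CPM in normal replicates 1 to 3, given without a test. No call was left without normal replicate 1 or normal replicate 2, and 2 were left without AML replicate 1, AML replicate 2 or normal replicate 3.

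The cells that held each transcript differed between the groups. Of Spic UMIs, 89.6%, 73.2% and 26.8% lay in nonclassical monocytes of AML replicates 1 to 3, and 42.3% of those of AML replicate 3 lay in ungated cells. The share in nonclassical monocytes was 44.1% to 62.2% in normal libraries. Of Fth1 UMIs, 67.3% to 84.9% lay in alveolar macrophages in normal lung and 10.7% to 27.2% in AML lung. Fth1 in whole libraries overlapped between the groups (log2 fold change 0.07, SE 0.18, edgeR adjusted p = 0.824) although it was higher in AML within nonclassical monocytes.

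Haemoglobin RNA was used to ask whether the genes followed the red cell content of a library. Hbb-bs, the major adult beta globin gene, stood at 0.0819, 0.0302 and 376 CPM in whole libraries of AML replicates 1 to 3 and at 0.0975, 531 and 265 CPM in normal replicates 1 to 3. Libraries thus fell into 3 with almost none (4, 2 and 5 UMIs) and 3 with much, and the split crossed the groups. Spic in nonclassical monocytes was highest in AML replicates 1 and 2, which had almost no Hbb-bs, and lower in AML replicate 3. Within the normal libraries it was highest in replicate 1, at 20.8 CPM, again the library with almost no Hbb-bs. Hmox1 in nonclassical monocytes followed no such order in normal lung (88.3 CPM in replicate 1, 97.3 and 63.2 CPM in replicates 2 and 3). Fth1 separated the groups at both levels of Hbb-bs: 5022 and 4738 CPM against 1392 CPM where there was almost none, and 4026 CPM against 1692 and 1551 CPM where there was much. The libraries with almost no Hbb-bs were also the deepest of their group. Median UMIs per barcode were 9381, 3979.5 and 1067 in AML replicates 1 to 3 and 9354, 6102 and 2740 in normal replicates 1 to 3. Hbb-bs level and depth therefore cannot be told apart here. With at most 2 libraries of a group at a level, no correlation or test was made.

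Hbb-bs within nonclassical monocytes was at most 5.69 CPM, below the 9.09, 11.1 and 12.7 CPM of B and T cells in the same 3 libraries. Between 91.1% and 96.8% of its UMIs lay in gated erythroid cells in those libraries (188 cells in AML replicate 3, 27 and 47 in normal replicates 2 and 3). The gate uses haemoglobin genes as erythroid markers, which moves other cells with much Hbb-bs, monocytes among them, out of their own gates. With those genes taken out of the gate, a setting chosen after seeing the data, Hbb-bs in nonclassical monocytes was 18.3, 13.4 and 21.3 CPM in AML replicate 3 and normal replicates 2 and 3, in 2.10%, 4.37% and 4.25% of cells, and Spic was 59.9, 6.28 and 11.7 CPM. In the same setting Hbb-bs in the neutrophil gate was 1056, 6780 and 3777 CPM in those libraries, against 35.0, 81.9 and 111 CPM in the main gate. The share of Hbb-bs in erythroid cells thus depends on the gate. Keeping only cells with no haemoglobin UMI left the 3 calls in nonclassical monocytes as they were.

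**Figure D5:**
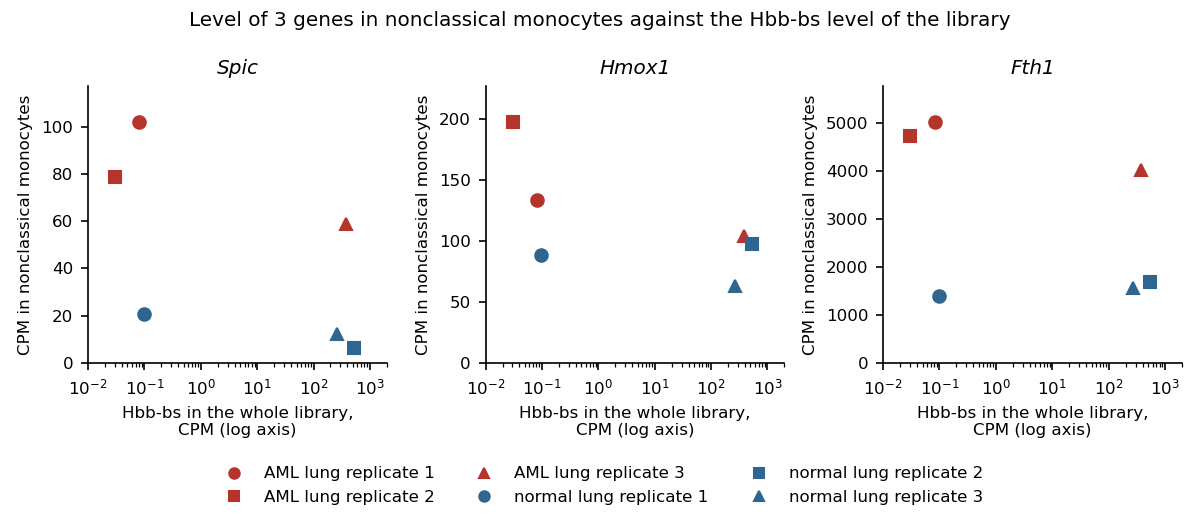
CPM of Spic, Hmox1 and Fth1 in nonclassical monocytes (linear axes from 0) against Hbb-bs in the whole library (CPM, log axis), 1 point per library. The 3 libraries at the left hold under 0.1 CPM of Hbb-bs and the 3 at the right 265 to 531 CPM. Fth1 lies at 4026 CPM or above in AML and 1692 CPM or below in normal libraries on both sides.

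Other genes of iron and haem handling in nonclassical monocytes were taken from 5 lists. Of 15 genes listed as NRF2 and BACH1 targets, 14 were tested and 8 were higher in AML, none lower, with a median log2 fold change of 0.78 where that of all genes was 0.0081. Of all genes tested in these cells, 3.26% were called higher. Slc7a11, the cystine importer, rose by 2.12 (SE 0.23, edgeR adjusted p = 0.00363) and Txnrd1, thioredoxin reductase, by 1.11 (SE 0.12, edgeR adjusted p = 0.00381). Sqstm1 (0.73), Srxn1 (1.54), Nqo1 (2.40), Mafg (0.58), Prdx1 (0.83) and Gclm (1.04) were the other 6. Gclc and G6pdx stood at -0.11 and -0.01. This count was 2 without AML replicate 1, normal replicate 1 or normal replicate 2, 3 without normal replicate 3 and under the profile assignment, 4 without AML replicate 2, and 5 in cells without a Spic UMI, and Slc7a11 and Txnrd1 were called in each of these.

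Of 11 genes of haem and haemoglobin uptake and transport, 7 were tested, and Blvra, biliverdin reductase A, and Hp, haptoglobin, rose (0.72 and 1.11, edgeR adjusted p = 0.0147 and 0.0180), where 5.82% of all genes were called in either direction. Neither was called without AML replicate 1 or any 1 of the normal libraries, and Hp was not under the profile assignment. Of 20 genes of iron import, storage and regulation, 15 were tested. Cp, the ferroxidase ceruloplasmin, and Slc11a2, the divalent metal transporter DMT1, rose by 2.52 and 0.81 on the log2 scale (edgeR adjusted p = 0.00217 and 0.0398), and Trf, transferrin, fell by 0.97 (edgeR adjusted p = 0.0215). Cp was called in every alternative fit, whereas neither Slc11a2 nor Trf was without AML replicate 1, without any 1 of the normal libraries or under the profile assignment, nor was Slc11a2 without AML replicate 2 or in cells without a Spic UMI. None of 8 haem synthesis genes passed. Of 10 genes of red pulp macrophages only 4 could be tested: Itgad rose by 1.70 and Hpgd fell by 2.32 (edgeR adjusted p = 0.0322 and 0.0312), and Vcam1 and Cd5l were at 1.23 CPM or less in every library. Without any 1 of the normal libraries, and under the profile assignment, neither Itgad nor Hpgd was called, nor was Itgad without AML replicate 2 or in cells without a Spic UMI, or Hpgd without AML replicate 1. In classical monocytes, where 1.50% of all 10228 genes passed edgeR's test, Hp, Lcn2 and Slc7a11 rose. They were 1 of 7 uptake and transport genes tested, 1 of 17 iron genes and 1 of 11 NRF2 and BACH1 targets. None of the 7 haem synthesis and 6 red pulp genes tested there passed. There Hp was not called without AML replicate 1 or any 1 of the normal libraries, Slc7a11 not without AML replicate 2 or any 1 of the normal libraries, and Lcn2 not without normal replicate 1. In alveolar macrophages and neutrophils no gene of these lists passed, where 0% and 0.0333% of all genes did.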

How the data were processed

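The deposited matrices hold raw UMI counts per gene and barcode. The submitters' processing notes name Cell Ranger 7.0.0 and mm10, and read filters are not given in the sources used here. Cells with at least 200 genes and 500 UMIs and under 10% mitochondrial UMIs were kept. No deposited cell annotation was used. A cell was assigned to the marker list with the highest rarity-weighted sum of log counts, if at least 2 of its markers were found and the next score was at most 0.6 of the best. Cells with mixed markers, doublets among them, stayed ungated, and no doublet caller was run. A second assignment, to the most likely mean profile, gave 89.0% of gated cells the same type. Counts were summed per library and type, types under 20 cells were left out, and edgeR 4.0.16 (quasi-likelihood, TMM, low counts filtered) in R 4.3.3 was fitted over all genes, with Benjamini-Hochberg adjustment. Each SE is the absolute log2 fold change divided by the square root of edgeR's F statistic, so it is approximate, most of all at low counts.

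The members and lists were chosen with earlier results of these data known. The text names every member in each main type and up to 8 list genes per type past the threshold by p, plus the 8 genes most like Spic. Gclc, G6pdx, Vcam1, Cd5l, Itgad, Mrc1, Axl, Mertk, Adgre1, Siglec1, Il18bp and Pecam1 were named outside that rule after their values were seen. The gate's rule was set after the matrices had been read. Same-numbered AML and normal libraries deviated together in nonclassical monocytes (r over genes of 0.22, 0.11 and 0.26) and in classical monocytes (0.17, 0.064 and 0.17). In alveolar macrophages and neutrophils the libraries of replicate 2 did not clearly do so (-0.063 and 0.013). The labels give no pairing, and median depth also fell from replicate 1 to 3 in both groups. The source of the shared deviation was not tested. No 2 libraries agreed within sampling noise. Alternatives were DESeq2 1.42.0, other size factors, no filter, a replicate block, each library left out, stricter gates and cell filters, the profile assignment and cells without haemoglobin UMIs. A gate without haemoglobin genes and cells without a Spic UMI were added after seeing the data. Intervals are exact at 95% and cover counting error only.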

Additional observations from a re-analysis of the deposited data

Results flagged for a closer look

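The difference in AML effect between nonclassical and classical monocytes passed edgeR's test for Fth1 (0.96 on the log2 scale), Ftl1 (0.67) and Blvrb (1.24). Between nonclassical monocytes and alveolar macrophages it passed for Fth1 (1.59). All were flagged because the effect of AML differed between cell types by a test of that difference. In the 4 cases the effect was the larger in nonclassical monocytes, and none of the calls held without AML replicate 2 or without any 1 of the normal libraries.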

How the results depend on the processing

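Of 735 refits of single genes, 646 kept direction and side of the threshold, 31 lost the call, 19 gained one and 38 changed sign, none of these from a call. In nonclassical monocytes, leaving out 1 library gave 1 to 3 calls of 6. In classical monocytes 0 calls became 2 with DESeq2, 3 without the filter, 1 with the replicate block and 1 under the profile assignment, and 0 to 0 with a library left out. In alveolar macrophages DESeq2 gave 1, and leaving out a library 0 to 0. In interstitial macrophages 1 call became 3 with DESeq2, 5 without the filter, 3 with the block and 0 under the profile assignment, and 0 to 1 with a library left out. In neutrophils 1 call became 2 without the filter and 0 under the profile assignment, and 0 to 1 with a library left out. In whole libraries 3 calls became 1 with the block (Nfe2l2), and 0 to 3 with a library left out. The 4 differences between cell types became 0 to 6 with a library left out. Same-numbered libraries deviated together in nonclassical and classical monocytes, and not clearly in every pair in alveolar macrophages and neutrophils. The block changed no other count of calls by over 1.5 times. The highest Hbb-bs level in nonclassical monocytes moved from 5.69 to 21.3 CPM in the gate without haemoglobin genes. The cause of each change was not tested.

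Over all genes, the 609 calls in nonclassical monocytes became 1025 with DESeq2, 1587 without the filter, 950 with the block, 317 under the profile assignment and 112 to 1608 with a library left out. In classical monocytes 153 became 459 with DESeq2, 1209 without the filter, 246 with the block and 0 to 910 with a library left out. In alveolar macrophages 0 became 85 with DESeq2. In interstitial macrophages 34 became 126 with DESeq2, 460 without the filter, 0 under the profile assignment and 1 to 46 with a library left out. In neutrophils 3 became 204 with DESeq2, 582 without the filter, 14 with the block, 0 under the profile assignment and 0 to 437 with a library left out. In whole libraries 1594 became 3384 with DESeq2, 72 with the block and 0 to 3215 with a library left out.

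None of the log2 fold changes that changed sign was past the threshold in the reported fit. Without the filter Ftl1 was -0.039 in alveolar macrophages, Fth1 0.027 and Nfe2l2 0.031 in interstitial macrophages, and Hmox1 0.038 and Bach1 0.032 in neutrophils. Under the profile assignment Slc40a1 was 0.0082 (-0.86 in the reported fit) and Ftl1 -0.027 in alveolar macrophages, Fth1 1.03 and Nfe2l2 0.046 in interstitial macrophages, and Hmox1 0.40 and Bach1 0.0010 in neutrophils. With the stricter cell filter Ftl1 was -0.0030 in alveolar macrophages and Hmox1 0.031 in neutrophils, and with the replicate block Hmox1 was 0.040 in neutrophils. In cells without haemoglobin UMIs Nfe2l2 was 0.014 in interstitial macrophages, Hmox1 0.081 and Bach1 0.038 in neutrophils and Slc40a1 0.076 in whole libraries. With a library left out, Slc11a1 ran from -0.10 to 0.21 in nonclassical monocytes, and Fth1 from -0.11 to 0.19 and Ftl1 from -0.062 to 0.071 in alveolar macrophages. In interstitial macrophages Fth1 ran from -0.21 to 0.15, Bach1 from -0.069 to 0.57 and Nfe2l2 from -0.26 to 0.22. In neutrophils Hmox1 ran from -0.16 to 0.26, Ftl1 from -0.034 to 0.23 and Bach1 from -0.087 to 0.082. In whole libraries Slc40a1 ran from -0.32 to 0.19 and Fth1 from -0.077 to 0.16. The difference between nonclassical monocytes and alveolar macrophages ran from -0.026 to 0.22 for Nfe2l2, and that to neutrophils from -0.24 to 0.62 for Blvrb, -0.20 to 0.27 for Nfe2l2 and -0.54 to 0.071 for Slc11a1.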
